A study of Mus musculus with 20 samples.

Results

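The 31 genes described here are genes of resting and central T cells: transcription factors of quiescent lymphocytes, receptors and homing genes, restraints on growth and a few signalling and cytoskeletal genes. They were named by symbol and looked up in the array annotation, with the probe set of highest mean signal kept for each gene. Of the 31, 28 had a named probe set, out of 19505 genes measured, and each of the 28 had only 1. Tcf7, Rapgef4 and Ccnd2-as1 had no named probe set and were not analysed here. The list did not use any value of these arrays, but it was drawn up with earlier results of these data known.

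Resting T cells hold forkhead factors of the Foxo family in the nucleus. These drive genes for recirculation and survival, among them the Krüppel-like factor Klf2, the egress receptor S1pr1 and the interleukin-7 receptor Il7r. Signals through the antigen receptor and phosphoinositide 3-kinase move Foxo proteins out of the nucleus, and the cell leaves quiescence and starts to grow. Growth depends on the kinase complex mTORC1, which the small GTPase Rheb activates and to which the Rag GTPases pass on the presence of amino acids. Central regulatory T cells (Tregs), which hold immune responses in check, resemble naive T cells in their use of these homing and quiescence genes.

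RNA was profiled on 20 Clariom S arrays, 1 per sample, from mouse Tregs of the C57BL/6 background obtained by bead enrichment of CD4 cells and a sort for CD4 and CD25. The Rheb experiment had 12 arrays: wild type (WT) and cells lacking Rheb1 and Rheb2 (Rheb KO), each unstimulated and stimulated, 3 arrays per group. The Rag experiment had 8 arrays: WT and cells lacking RagA and RagB (Rag KO), each unstimulated and stimulated for 8 h, 2 arrays per group. The sources used here give neither the stimulus, nor its duration in the Rheb experiment, nor the driver of the deletions, nor the age of the mice. Groups were read from the sample titles. For 6 arrays, the 3 of unstimulated Rheb KO and the 3 of stimulated WT of the Rheb experiment, the treatment field names the state opposite to the title. Under that field every Rheb KO array would be stimulated and every WT array of that experiment unstimulated, so each change with stimulation in the Rheb experiment rests on the titles.

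Signals are log2 values, so a difference of 1 is a factor of 2. The median signal of an array was 7.67 to 7.77 for Rheb experiment arrays and 7.18 to 7.55 for those of the Rag experiment. The 99th percentile was more uneven in the Rag experiment, 11.34 to 12.15 against 11.99 to 12.07, and 2 of its arrays stood lowest: replicate 1 of unstimulated Rag KO and replicate 2 of unstimulated WT. The deleted transcripts Rheb (-0.88 ± 0.17 unstimulated, adjusted p = 0.0413, and -0.93 ± 0.17 stimulated, adjusted p = 0.0278) and Rraga, which encodes RagA (-2.43 ± 0.25, adjusted p = 0.00266, and -2.18 ± 0.25, adjusted p = 0.00448), were lower in their knockout groups. Rhebl1, which encodes Rheb2, lay below the median of the negative control probes in every array of the Rheb experiment, WT included, so its signal does not check that deletion. Rragb, which encodes RagB, did not pass in Rag KO arrays (-0.08 ± 0.30 and -0.22 ± 0.30, adjusted p = 0.973 and 0.955), and the annotation used here does not say whether its probes lie in the deleted part. Of 17 core Treg genes 15 were measured, Foxp3 being one of those without a named probe set, and their mean per array was 10.21 to 11.18. In the Rheb experiment it was 10.92 to 10.95 in unstimulated WT and 10.51 to 10.70 in unstimulated Rheb KO. Changes are given as log2 differences ± standard error (SE) from limma, and genes with a p below 0.05 after Benjamini-Hochberg adjustment over all 19505 genes were called. Of the core Treg genes, Socs2 (-0.91), Nt5e (-0.71), Entpd1 (-0.70) and Lrrc32 (-0.66) were called as lower in unstimulated Rheb KO than in WT. Nt5e was also called as lower in Rag KO, unstimulated (-1.80) and stimulated (-1.56). Whether the replicate arrays stem from different mice is not said in the labels, and p-values therefore measure only how far these samples spread, which may be technical.

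In WT Tregs of the Rheb experiment 18 of the 28 genes fell with stimulation and 1 rose, Slfn2. Over all genes 9.37% were called in this comparison, 4.89% as lower and 4.49% as higher. The median change of the 28 was -0.59, against 0.02 for all genes, and 25 of the 28 were below 0. In Rheb KO Tregs 18 of the 28 fell and none rose (9.75% of all genes were called, 5.19% as lower), with a median of -0.62. All stimulated arrays lay below all unstimulated ones for 22 of the 28 genes in WT and 23 in Rheb KO, against 11.5% and 14.4% of all genes, and above them for 1 and 2 genes, against 12.9% and 13.5%. The falls covered 6 of 7 receptors and homing genes in WT and 7 of 7 in Rheb KO, 5 and 4 of 7 restraints on growth, 3 of 3 signalling and cytoskeletal genes in both, 2 of 5 forkhead and Krüppel-like factors in both, and 2 of 6 further transcription factors in both. Of the 18 genes that fell in each genotype, 17 were shared. Btg1 passed only in WT and Il6st only in Rheb KO, and neither difference between the genotypes passed its own test (adjusted p = 0.899 and 0.848). Across the 28 genes the WT and the Rheb KO change correlated with r = 0.94, a description over genes measured in the same arrays. In bulk samples, fewer cells of a type and less RNA per cell cannot be told apart.

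**Figure D1:**
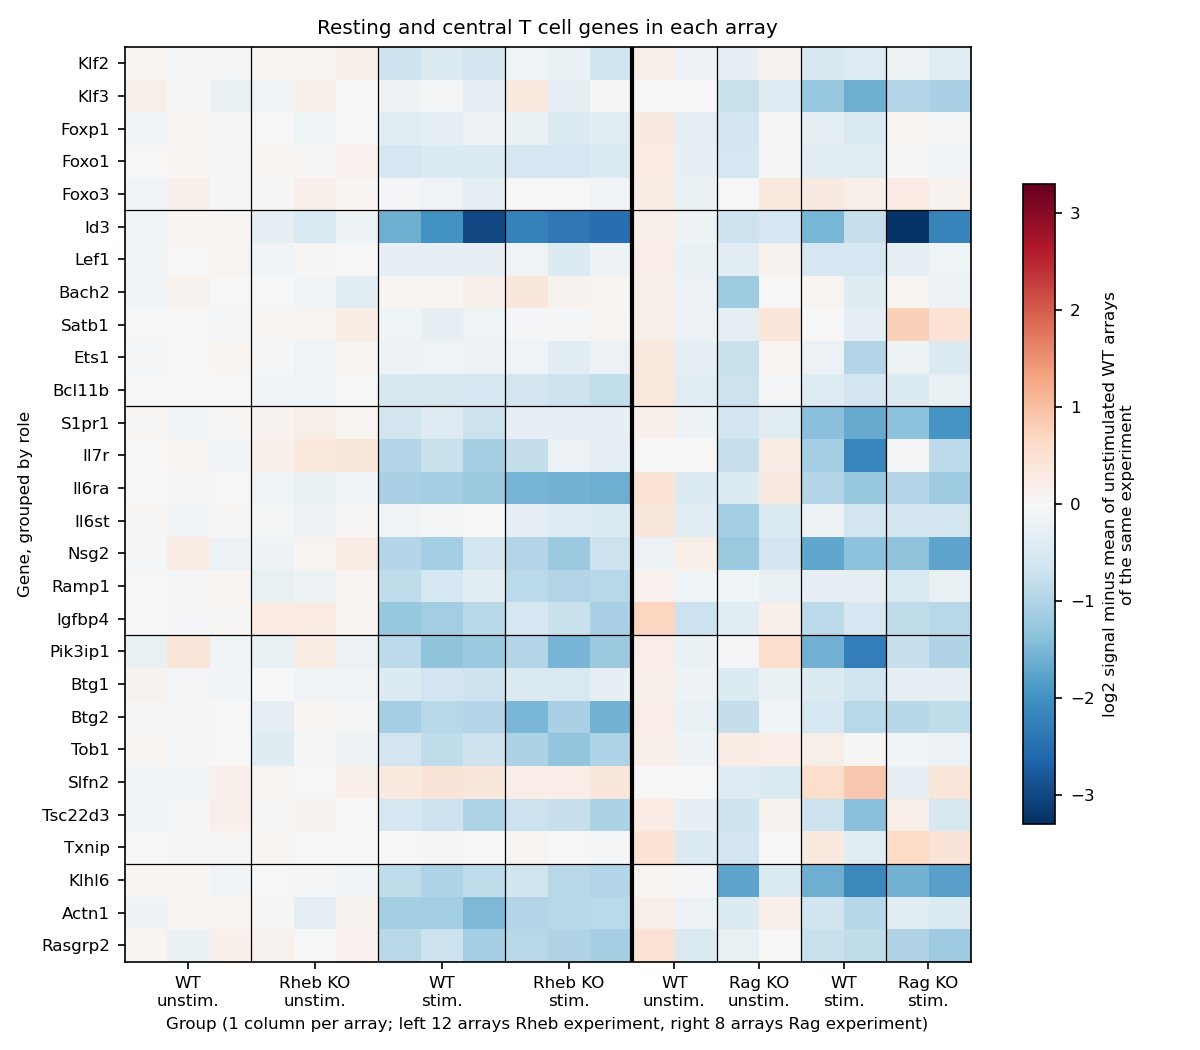
Log2 signal of the 28 measured genes in each of the 20 arrays, minus the mean of the unstimulated WT arrays of the same experiment, with 1 column per array and genes grouped by role (forkhead and Krüppel-like factors, other transcription factors, receptors and homing, restraints on growth, signalling and cytoskeleton). Blue marks lower and red higher signal. Id3 is the darkest row in the stimulated arrays of the Rheb experiment and of Rag KO, while Foxo3 and Txnip stay pale throughout the Rheb experiment.

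In the Rag experiment 5 of the 28 genes fell with stimulation in WT Tregs, namely Klf3, Klhl6, Nsg2, Pik3ip1 and S1pr1, and none rose. Over all genes 1% were called, 0.523% as lower. The median of the 28 was -0.56, but -0.30 without replicate 1 and -0.88 without replicate 2 of unstimulated WT. The median 95% interval reached 0.60 to either side of the change, against 0.24 in the Rheb experiment. In Rag KO Tregs only Id3 was called, as lower, of the 28 (1.32% of all genes were called, 0.123% as lower), and the median was -0.19, or 0.08 without replicate 2 and -0.36 without replicate 1 of unstimulated Rag KO. Arrays did not overlap, with the stimulated ones lower, for 19 of the 28 genes in WT and 11 in Rag KO, against 10.1% and 13.8% of all genes. They were higher for 1 and 3 of the 28, against 37.3% and 31.9% of all genes. Without replicate 1 of unstimulated Rag KO and replicate 2 of unstimulated WT, the arrays of lowest signal, the median was -0.88 in WT and -0.36 in Rag KO. That leaves 1 array in each unstimulated group, so the spread within groups then comes from the stimulated arrays alone. The median change of all genes in the Rag experiment WT arrays was 0.21, so the values as deposited moved up with stimulation. With array medians centred 11 of the 28 fell in WT and 5 in Rag KO, and a second quantile normalization also gave 11 and 5. In the WT comparison no gene was called without replicate 2 of unstimulated WT or replicate 2 of stimulated WT, 1 without replicate 1 of stimulated WT and 2 without replicate 1 of unstimulated WT. The counts in the Rag experiment thus change with the arrays and the scaling used, and leaving out 1 array there leaves 1 in its group.

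Of the 18 genes that fell in WT of the Rheb experiment, 4 also fell in WT of the Rag experiment, which is 22.2% of the first list and 80% of the second: S1pr1, Nsg2, Pik3ip1 and Klhl6. Id3 is the only gene called in the knockout responses of both experiments, 1 of 18 and 1 of 1. Over the 28 genes the WT changes of the 2 experiments, which share no array, correlated with r = 0.60 and the knockout changes with r = 0.80, both as descriptions over genes. All other values follow by role.

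**Figure D2:**
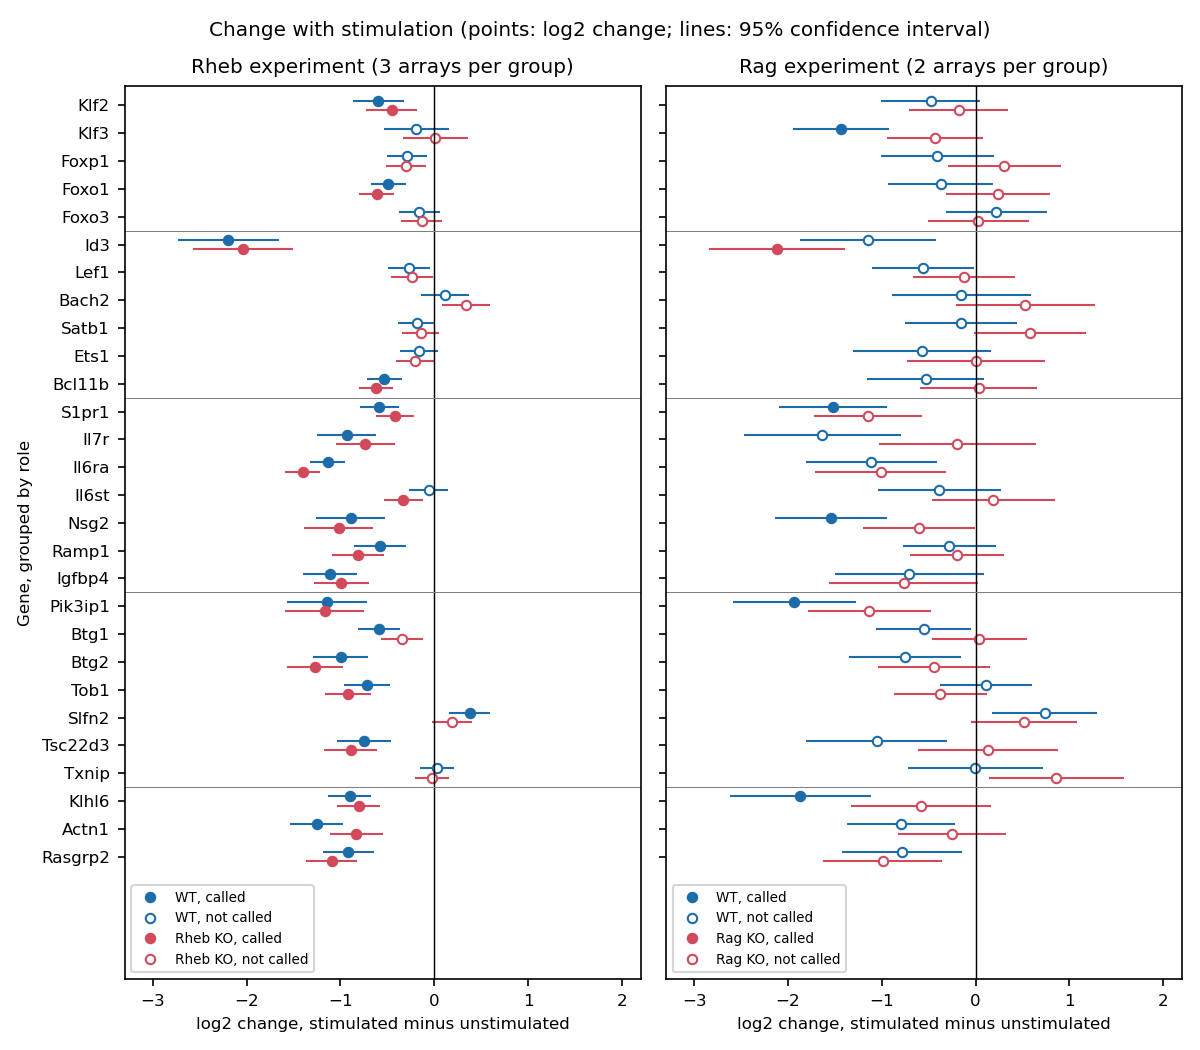
Change of each gene with stimulation (log2, stimulated minus unstimulated) with its 95% confidence interval from limma, in WT (blue) and knockout (red) arrays of the Rheb experiment (left, 3 arrays per group) and the Rag experiment (right, 2 arrays per group). Filled points were called at an adjusted p below 0.05: 19 WT and 18 Rheb KO points on the left, 5 WT and 1 Rag KO point on the right, where the intervals are wider.

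Klf2, which drives S1pr1 and holds T cells in quiescence, had log2 signals of 8.92, 8.81 and 8.80 in the unstimulated and 8.16, 8.36 and 8.23 in the stimulated WT arrays of the Rheb experiment. Every stimulated array lay below every unstimulated one, and Klf2 fell (log2 change -0.60 ± 0.13, adjusted p = 0.00858). In Rheb KO it gave 8.91, 8.91 and 9.04 without and 8.69, 8.63 and 8.18 with stimulation, -0.45 ± 0.13 (adjusted p = 0.0371). Those arrays did not overlap either, although stimulated replicate 3 stood apart from the other 2 and the call ended without it, at -0.29, or without any 1 unstimulated Rheb KO array. In the Rag experiment Klf2 gave 8.93 and 8.55 unstimulated and 8.22 and 8.31 stimulated in WT and 8.47 and 8.86 unstimulated and 8.58 and 8.40 stimulated in Rag KO. The WT arrays did not overlap and the Rag KO arrays did, and neither change passed (-0.48 ± 0.24 and -0.18 ± 0.24, adjusted p = 0.366 and 0.91).

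Foxo1, the forkhead factor through which Akt signalling controls many homing genes, gave 11.02, 11.11 and 11.01 in unstimulated and 10.48, 10.60 and 10.58 in stimulated WT arrays of the Rheb experiment, and fell (log2 change -0.49 ± 0.09, adjusted p = 0.00257). In Rheb KO it gave 11.11, 11.10 and 11.19 and then 10.48, 10.49 and 10.59, -0.61 ± 0.09 (adjusted p = 0.00047). In neither genotype did the arrays of the 2 states overlap. Its Rag experiment signals were 10.11 and 9.60 unstimulated and 9.48 and 9.48 stimulated in WT and 9.28 and 9.78 unstimulated and 9.78 and 9.75 stimulated in Rag KO, where the changes of -0.37 ± 0.26 and 0.24 ± 0.26 did not pass (adjusted p = 0.468 and 0.85). It is not given here whether 1 normalization covered both experiments, so levels across experiments are not compared further.

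Klf3, a Krüppel-like repressor, was called in the Rag experiment and not in the Rheb experiment. Its WT signals in the Rag experiment were 9.38 and 9.40 without and 8.13 and 7.77 with stimulation, -1.44 ± 0.24 (adjusted p = 0.0134), or 2.71-fold lower. The 2 stimulated arrays lay more than 1 log2 unit below both unstimulated ones. In Rag KO it gave 8.64 and 8.97 unstimulated and 8.43 and 8.31 stimulated, -0.44 ± 0.24 (adjusted p = 0.468). In the Rheb experiment its WT arrays gave 9.29, 9.13 and 8.84 unstimulated and 8.91, 9.03 and 8.76 stimulated, -0.19 ± 0.16 (adjusted p = 0.584), and its Rheb KO arrays 8.94, 9.25 and 9.07 unstimulated and 9.42, 8.77 and 9.12 stimulated, 0.01 ± 0.16 (adjusted p = 0.982). The states overlapped in both genotypes there. The difference between the WT changes of the 2 experiments was -1.25 ± 0.27 (adjusted p = 0.0422), the only 1 of the 28 genes to pass that test, in which 0.323% of all genes were called, 0.041% as lower. This call ended in 16 of 28 alternative settings, with values from -1.43 to -1.06 over all of them. Within the Rag experiment, it ended without replicate 2 of unstimulated WT, replicate 2 of stimulated WT or either stimulated Rag KO array, and in the Rheb experiment without any 1 stimulated WT or unstimulated Rheb KO array, replicate 2 or 3 of unstimulated WT, or replicate 3 of stimulated Rheb KO. Experiment, duration and batch cannot be told apart in it.

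Foxo3, a second Foxo protein, and Foxp1, a forkhead factor that keeps naive T cells quiescent, were not called in any comparison. Foxo3 lay at 8.18 to 8.66 over the Rheb experiment and 8.32 to 8.90 over the Rag experiment, and its WT changes were -0.16 ± 0.10 and 0.22 ± 0.25. Foxp1 lay at 11.41 to 11.96 and 11.05 to 11.98, with WT changes of -0.29 ± 0.10 and -0.41 ± 0.28 (adjusted p = 0.0998 and 0.467). In the Rheb experiment its WT signals were 11.79 to 11.96 unstimulated and 11.52 to 11.70 stimulated. Its Rheb KO signals were 11.74 to 11.92 and 11.41 to 11.67, a change of -0.30. Neither genotype overlapped between states. With a trended variance prior limma called Foxp1 as lower in WT (adjusted p = 0.0116) and Rheb KO (adjusted p = 0.00899). The low-signal filter gave a call in Rheb KO (adjusted p = 0.0455).

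Id3, an inhibitor of the DNA binding of E proteins, had the largest change of the 28 genes in both genotypes of the Rheb experiment. Its WT signals were 9.31, 9.51 and 9.51 unstimulated and 7.83, 7.45 and 6.47 stimulated, -2.19 ± 0.25 (adjusted p = 0.000118). The stimulated arrays were far apart from each other, and all lay more than 1 unit below the unstimulated ones. Rheb KO arrays gave 9.15, 8.95 and 9.28 unstimulated and 7.21, 7.09 and 6.96 stimulated, -2.04 ± 0.25 (adjusted p = 0.000155). Among the 8 Rag experiment arrays, WT arrays gave 9.74 and 9.42 unstimulated and 8.07 and 8.81 stimulated, -1.14 ± 0.34, which did not pass (adjusted p = 0.143), although the arrays did not overlap. Rag KO arrays gave 8.91 and 9.04 unstimulated and 6.34 and 7.37 stimulated, and Id3 fell (log2 change -2.12 ± 0.34, adjusted p = 0.00827). That call ended without replicate 1 of stimulated Rag KO, the lower of the 2 arrays, which left a change of -1.60. Id3 signal was above the median of the negative control probes in 17 of 20 arrays. The other 3, all stimulated, lay below it: replicate 3 of WT (6.47 against 6.93) and of Rheb KO (6.96 against 7.16) in the Rheb experiment, and replicate 1 of Rag KO (6.34 against 6.57). The sizes of these Id3 changes therefore rest in part on signals at background, and no fold is given.

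Bcl11b, a zinc finger factor of T lineage commitment, fell less in both genotypes of the Rheb experiment. Its WT signals in the Rheb experiment were 10.97, 10.99 and 11.01 unstimulated and 10.46, 10.47 and 10.44 stimulated, -0.53 ± 0.09 (adjusted p = 0.00134), and its Rheb KO signals 10.90, 10.86 and 10.97 unstimulated and 10.37, 10.30 and 10.19 stimulated, -0.62 ± 0.09 (adjusted p = 0.000378). No stimulated array of either genotype reached an unstimulated one. Rag experiment arrays gave 11.51 and 10.82 unstimulated and 10.74 and 10.52 stimulated in WT and 10.46 and 11.10 unstimulated and 10.71 and 10.91 stimulated in Rag KO, with changes of -0.53 ± 0.29 and 0.03 ± 0.29 that did not pass (adjusted p = 0.384 and 0.994).

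The other 4 measured transcription factors were not called in any comparison. Lef1, a partner of beta-catenin, lay at 11.21 to 11.39 in unstimulated and 10.85 to 11.20 in stimulated arrays of the Rheb experiment, with changes of -0.27 ± 0.10 in WT and -0.23 ± 0.10 in Rheb KO (adjusted p = 0.147 and 0.211). Bach2, a repressor of effector genes, was above 0 in both, 0.11 ± 0.12 and 0.34 ± 0.12 (adjusted p = 0.683 and 0.103). Satb1, a chromatin organiser, gave -0.19 ± 0.09 and -0.14 ± 0.09, and Ets1 gave -0.16 ± 0.09 and -0.20 ± 0.09, none of which passed. Their WT changes in the Rag experiment ran from -0.57 (Ets1) to -0.15 (Bach2) and their Rag KO changes from -0.12 (Lef1) to 0.58 (Satb1), again without a call.

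Among the receptors, S1pr1, through which lymphocytes sense sphingosine 1-phosphate and leave lymphoid tissue, fell in WT of both experiments. Its Rheb experiment WT signals were 10.64, 10.53 and 10.65 unstimulated and 10.003, 10.18 and 9.88 stimulated, -0.58 ± 0.09 (adjusted p = 0.00148). The corresponding Rheb KO signals were 10.71, 10.80 and 10.71 unstimulated and 10.34, 10.31 and 10.32 stimulated, -0.42 ± 0.09 (adjusted p = 0.0119). States did not overlap in either genotype, and all 3 stimulated Rheb KO arrays lay above all 3 stimulated WT arrays. Within the Rag experiment, WT arrays gave 11.14 and 10.81 unstimulated and 9.61 and 9.30 stimulated, -1.52 ± 0.27 (adjusted p = 0.0158), or 2.87-fold lower. Rag KO arrays gave 10.34 and 10.62 unstimulated and 9.63 and 9.04 stimulated, -1.14 ± 0.27, just short of a call (adjusted p = 0.0564). Here too no stimulated array overlapped an unstimulated one.

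Il7r, the alpha chain of the interleukin-7 receptor that sustains resting T cells, gave 10.71, 10.77 and 10.62 unstimulated and 9.72, 9.97 and 9.62 stimulated in WT of the Rheb experiment, -0.93 ± 0.15 (adjusted p = 0.00117). Rheb KO arrays gave 10.86, 11.05 and 11.07 unstimulated and 9.91, 10.50 and 10.38 stimulated, -0.73 ± 0.15 (adjusted p = 0.00514). Both genotypes separated fully by state, with stimulated replicate 1 the lowest of the Rheb KO arrays. Among the 8 Rag experiment arrays, WT gave 10.88 and 10.85 unstimulated and 9.75 and 8.71 stimulated, -1.64 ± 0.39, which missed the threshold (adjusted p = 0.0713) with the 2 stimulated arrays 1 unit apart. Rag KO arrays gave 10.11 and 11.10 unstimulated and 10.82 and 10.01 stimulated, -0.19 ± 0.39 (adjusted p = 0.953). The Rag KO states overlapped, and within each state the 2 arrays lay further apart than the state means.

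Il6ra, the ligand-binding chain of the interleukin-6 receptor, had the smallest adjusted p of the 28 genes in the Rheb experiment. WT arrays gave 11.42, 11.37 and 11.40 unstimulated and 10.33, 10.27 and 10.18 stimulated, -1.13 ± 0.09 (adjusted p = 6.48e-06), or 2.2-fold lower. Rheb KO arrays gave 11.25, 11.14 and 11.30 unstimulated and 9.86, 9.85 and 9.78 stimulated, -1.40 ± 0.09 (adjusted p = 9.27e-07), or 2.64-fold lower. Replicates stayed close in all 4 groups and states were separate. Rag experiment arrays gave 12.02 and 11.11 unstimulated and 10.60 and 10.30 stimulated in WT, -1.11 ± 0.32, and 11.12 and 11.85 unstimulated and 10.58 and 10.37 stimulated in Rag KO, -1.01 ± 0.32 (adjusted p = 0.14 and 0.148). Those states were separate as well, but the 2 unstimulated arrays of each genotype lay far apart and neither change passed.

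Il6st, the signal-transducing chain shared by receptors of the interleukin-6 family, did not pass in WT. Its WT signals in the Rheb experiment were 11.91, 11.79 and 11.91 unstimulated and 11.75, 11.82 and 11.85 stimulated, -0.06 ± 0.09 (adjusted p = 0.804), which overlapped. Its Rheb KO signals were 11.82, 11.68 and 11.92 unstimulated and 11.57, 11.44 and 11.42 stimulated, and it fell (log2 change -0.33 ± 0.09, adjusted p = 0.0447). That call ended in 13 of 20 alternative settings, where its value lay between -0.38 and -0.27. In the Rag experiment it gave 12.08 and 11.34 unstimulated and 11.55 and 11.09 stimulated in WT and 10.59 and 11.23 unstimulated and 11.09 and 11.11 stimulated in Rag KO, changes of -0.39 ± 0.30 and 0.19 ± 0.30 that did not pass (adjusted p = 0.514 and 0.929).

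Nsg2, a vesicle protein known mainly from neurons, fell in WT of both experiments. In the Rheb experiment it gave 9.16, 9.47 and 9.01 unstimulated and 8.25, 8.10 and 8.60 stimulated in WT, -0.89 ± 0.17 (adjusted p = 0.00432), and 9.05, 9.29 and 9.45 unstimulated and 8.24, 8.00 and 8.49 stimulated in Rheb KO, -1.02 ± 0.17 (adjusted p = 0.00155). No stimulated array reached an unstimulated one. Within the Rag experiment, WT gave 8.73 and 9.12 unstimulated and 7.21 and 7.56 stimulated, -1.54 ± 0.28 (adjusted p = 0.0182), or 2.91-fold lower. Rag KO gave 7.71 and 8.29 unstimulated and 7.60 and 7.19 stimulated, -0.60 ± 0.28 (adjusted p = 0.34). Both unstimulated Rag KO arrays lay below both unstimulated WT arrays, a difference that limma did not call.

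Ramp1, an accessory chain of the receptor for calcitonin gene-related peptide, gave 8.90, 8.84 and 8.98 unstimulated and 8.08, 8.34 and 8.57 stimulated in WT of the Rheb experiment, -0.58 ± 0.13 (adjusted p = 0.0111), a call that ended without replicate 1 of stimulated WT (-0.46). Rheb KO arrays gave 8.65, 8.74 and 9.01 unstimulated and 8.03, 7.94 and 7.99 stimulated, -0.81 ± 0.13 (adjusted p = 0.00105). The stimulated Rheb KO arrays were close to each other and the stimulated WT arrays were spread. Its Rag experiment signals were 8.42 and 8.13 unstimulated and 8.01 and 7.98 stimulated in WT and 8.14 and 8.04 unstimulated and 7.76 and 8.02 stimulated in Rag KO, -0.28 ± 0.23 and -0.20 ± 0.23, with no call (adjusted p = 0.532 and 0.869).

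Igfbp4, a secreted protein that binds insulin-like growth factors, gave 9.66, 9.62 and 9.69 unstimulated and 8.40, 8.50 and 8.74 stimulated in WT of the Rheb experiment, -1.11 ± 0.13 (adjusted p = 0.000187). Rheb KO arrays gave 9.93, 9.93 and 9.71 unstimulated and 9.09, 8.93 and 8.58 stimulated, -0.99 ± 0.13 (adjusted p = 0.000351). Both genotypes separated by state. Among the 8 Rag experiment arrays, WT arrays gave 10.09 and 8.70 unstimulated and 8.52 and 8.85 stimulated, -0.71 ± 0.37, and Rag KO arrays 9.03 and 9.55 unstimulated and 8.56 and 8.48 stimulated, -0.77 ± 0.37 (adjusted p = 0.372 and 0.371). The unstimulated WT pair there spanned more than 1 unit and overlapped the stimulated pair.

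**Figure D3:**
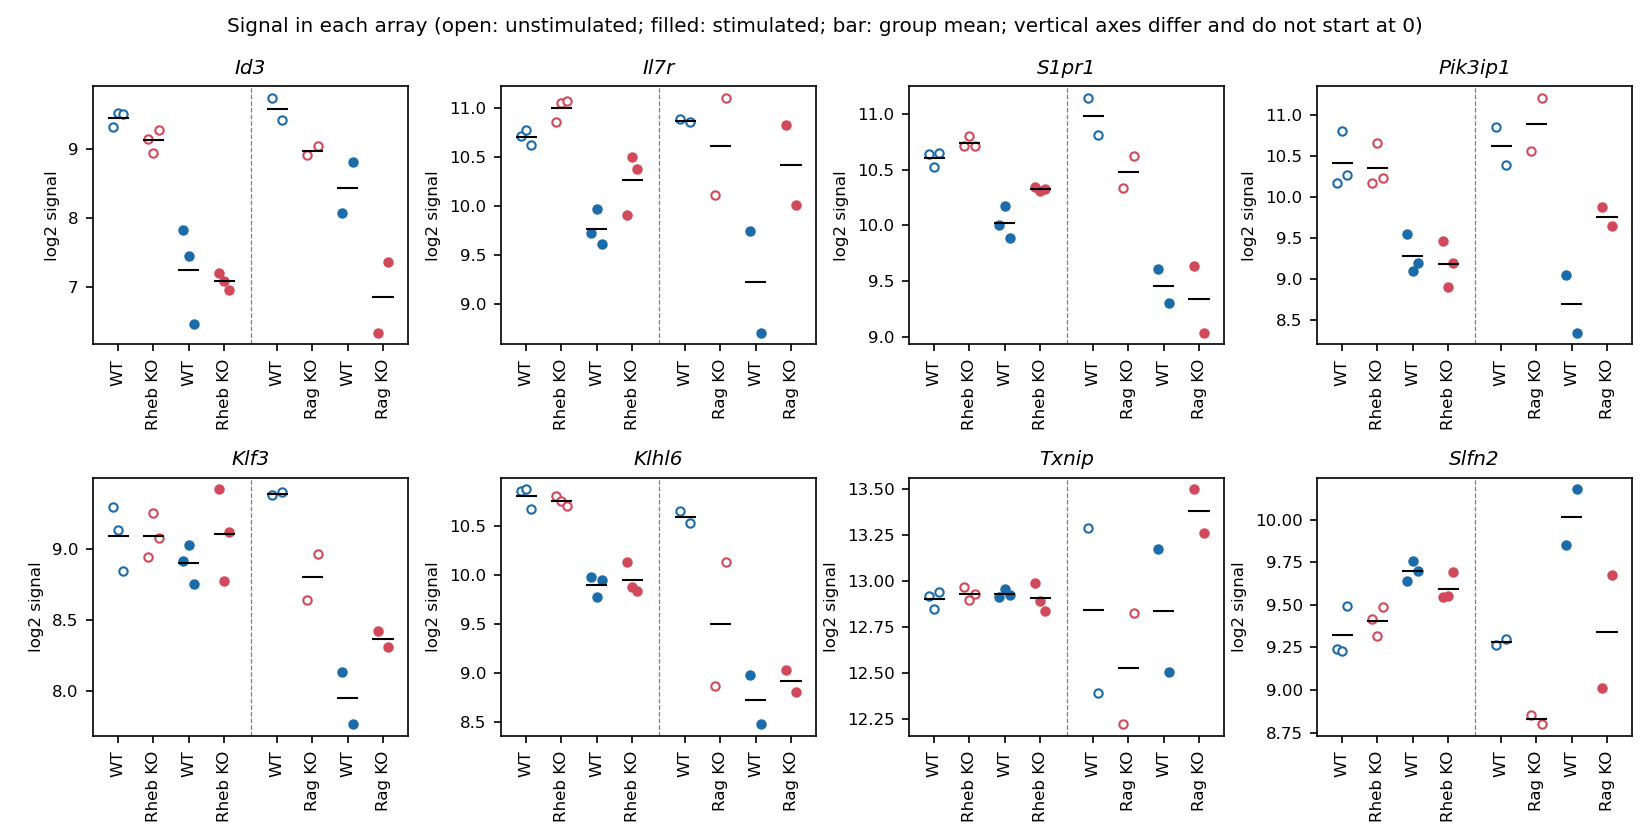
Log2 signal of 8 of the genes in each array (open circles unstimulated, filled circles stimulated, bars group means), with the Rheb experiment left and the Rag experiment right of the dashed line in each panel. Vertical axes differ between panels and do not start at 0. Klf3 separates by state in the Rag experiment WT arrays but not in the Rheb experiment, Txnip stays between 12.84 to 12.99 in the Rheb experiment, and Slfn2 is higher in stimulated WT arrays.

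Restraints on growth behaved unequally. Pik3ip1, a membrane inhibitor of phosphoinositide 3-kinase, gave 10.18, 10.81 and 10.27 unstimulated and 9.55, 9.10 and 9.20 stimulated in WT of the Rheb experiment, -1.14 ± 0.20 (adjusted p = 0.0023), and 10.18, 10.66 and 10.23 unstimulated and 9.46, 8.90 and 9.20 stimulated in Rheb KO, -1.17 ± 0.20 (adjusted p = 0.00171). All stimulated arrays lay below all unstimulated ones in both genotypes. In WT of the other experiment it had the largest fall of the 28 genes, from 10.86 and 10.40 to 9.05 and 8.34, -1.93 ± 0.30 (adjusted p = 0.00948), or 3.81-fold lower. Rag KO arrays gave 10.57 and 11.22 unstimulated and 9.88 and 9.65 stimulated, -1.13 ± 0.30 (adjusted p = 0.0916). States were separate in both, and both stimulated Rag KO arrays lay above both stimulated WT arrays.

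Btg1 and Btg2 are related antiproliferative proteins that bring a deadenylase to messenger RNA, and Tob1 belongs to the same family. Btg1 gave 10.48, 10.30 and 10.27 unstimulated and 9.89, 9.72 and 9.67 stimulated in WT of the Rheb experiment, -0.59 ± 0.10 (adjusted p = 0.00264), and 10.36, 10.24 and 10.24 unstimulated and 9.88, 9.84 and 10.09 stimulated in Rheb KO, -0.35 ± 0.10 (adjusted p = 0.0544). Its Rheb KO states were separate too, without a call. Btg2 gave 10.89, 10.82 and 10.84 unstimulated and 9.72, 9.94 and 9.89 stimulated in WT, -0.998 ± 0.14 (adjusted p = 0.000463), and 10.52, 10.92 and 10.79 unstimulated and 9.35, 9.78 and 9.29 stimulated in Rheb KO, -1.27 ± 0.14 (adjusted p = 5.55e-05). Tob1, of lower signal, gave 8.42, 8.31 and 8.35 unstimulated and 7.72, 7.53 and 7.67 stimulated in WT, -0.72 ± 0.11 (adjusted p = 0.00118), and 7.96, 8.30 and 8.21 unstimulated and 7.31, 7.06 and 7.34 stimulated in Rheb KO, -0.92 ± 0.11 (adjusted p = 0.000162). Neither overlapped between states in either genotype.

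None of these 3 genes passed in the Rag experiment. Btg1 gave 9.93 and 9.62 unstimulated and 9.33 and 9.12 stimulated in WT and 9.30 and 9.55 unstimulated and 9.47 and 9.46 stimulated in Rag KO, -0.55 ± 0.23 and 0.04 ± 0.23 (adjusted p = 0.305 and 0.989). Btg2 gave 10.36 and 9.91 unstimulated and 9.55 and 9.22 stimulated in WT and 9.36 and 10.03 unstimulated and 9.20 and 9.30 stimulated in Rag KO, -0.75 ± 0.28 and -0.44 ± 0.28 (adjusted p = 0.247 and 0.559). Tob1 gave 7.62 and 7.29 unstimulated and 7.65 and 7.49 stimulated in WT and 7.71 and 7.66 unstimulated and 7.36 and 7.26 stimulated in Rag KO, 0.11 ± 0.23 and -0.37 ± 0.23 (adjusted p = 0.806 and 0.545). Stimulated WT arrays lay below unstimulated ones for Btg1 and Btg2, and the states overlapped for Tob1.

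Slfn2, a schlafen protein that T cells need to stay quiescent, was the 1 gene that rose. Its WT signals in the Rheb experiment were 9.24, 9.23 and 9.49 unstimulated and 9.64, 9.76 and 9.70 stimulated, 0.38 ± 0.10 (adjusted p = 0.0307), or 1.3-fold higher. The arrays did not overlap, but the call ended in 8 of 20 alternative settings, among them without any 1 stimulated WT array or without unstimulated WT replicate 1 or 2, at values of 0.33 to 0.46 over all settings. Rheb KO arrays gave 9.42, 9.32 and 9.49 unstimulated and 9.55, 9.55 and 9.69 stimulated, 0.19 ± 0.10 (adjusted p = 0.314). The Rag experiment gave 9.26 and 9.30 unstimulated and 9.85 and 10.18 stimulated in WT, 0.73 ± 0.26, and 8.85 and 8.80 unstimulated and 9.01 and 9.67 stimulated in Rag KO, 0.52 ± 0.26, with no call (adjusted p = 0.227 and 0.408).

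Tsc22d3, the glucocorticoid-induced leucine zipper protein, gave 9.97, 10.07 and 10.27 unstimulated and 9.55, 9.41 and 9.10 stimulated in WT of the Rheb experiment, -0.75 ± 0.13 (adjusted p = 0.00258), and 10.14, 10.22 and 10.11 unstimulated and 9.39, 9.34 and 9.07 stimulated in Rheb KO, -0.89 ± 0.13 (adjusted p = 0.000679). States were separate in both. Within the Rag experiment, WT arrays gave 10.14 and 9.57 unstimulated and 9.13 and 8.47 stimulated, -1.05 ± 0.35, and Rag KO arrays 9.16 and 9.96 unstimulated and 10.06 and 9.33 stimulated, 0.13 ± 0.35 (adjusted p = 0.194 and 0.969). The WT arrays were separate and the Rag KO arrays overlapped. Txnip, which binds thioredoxin and limits glucose uptake, had the highest signal of the 28 genes and was not called in any comparison. Its changes with stimulation in the Rheb experiment were 0.03 ± 0.08 in WT and -0.02 ± 0.08 in Rheb KO, with 95% intervals of -0.15 to 0.21 and -0.20 to 0.16. Among the 8 Rag experiment arrays, it gave 13.29 and 12.39 unstimulated and 13.17 and 12.50 stimulated in WT and 12.22 and 12.83 unstimulated and 13.50 and 13.26 stimulated in Rag KO, 0.00 ± 0.33 and 0.86 ± 0.33 (adjusted p = 0.997 and 0.239).

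All 3 measured signalling and cytoskeletal genes fell in both genotypes of the Rheb experiment. Klhl6, an adaptor of a cullin ubiquitin ligase, gave 10.86, 10.88 and 10.68 unstimulated and 9.98, 9.78 and 9.95 stimulated in WT, -0.90 ± 0.11 (adjusted p = 0.000161), and 10.80, 10.75 and 10.71 unstimulated and 10.14, 9.88 and 9.84 stimulated in Rheb KO, -0.80 ± 0.11 (adjusted p = 0.000305). In the Rag experiment its WT arrays went from 10.65 and 10.53 to 8.98 and 8.48, -1.87 ± 0.35 (adjusted p = 0.022), or 3.65-fold lower. Its Rag KO arrays gave 8.86 and 10.13 unstimulated and 9.03 and 8.80 stimulated, -0.58 ± 0.35 (adjusted p = 0.527). The unstimulated Rag KO arrays differed by more than 1 unit, and their lower array, replicate 1, was among the 2 arrays of lowest signal.

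Actn1, the actin cross-linker alpha-actinin, gave 9.33, 9.58 and 9.56 unstimulated and 8.37, 8.33 and 8.00 stimulated in WT of the Rheb experiment, -1.25 ± 0.13 (adjusted p = 6.47e-05), and 9.44, 9.17 and 9.60 unstimulated and 8.52, 8.58 and 8.61 stimulated in Rheb KO, -0.83 ± 0.13 (adjusted p = 0.00111). The 3 stimulated Rheb KO arrays lay above the 3 stimulated WT arrays. Rasgrp2, an exchange factor that activates Rap1, gave 10.33, 10.05 and 10.42 unstimulated and 9.36, 9.56 and 9.14 stimulated in WT, -0.91 ± 0.13 (adjusted p = 0.000463), and 10.38, 10.27 and 10.41 unstimulated and 9.36, 9.26 and 9.16 stimulated in Rheb KO, -1.09 ± 0.13 (adjusted p = 9.85e-05). It separated by state in both genotypes. Within the Rag experiment, Actn1 gave 9.61 and 9.20 unstimulated and 8.74 and 8.47 stimulated in WT and 8.94 and 9.58 unstimulated and 9.06 and 8.95 stimulated in Rag KO, -0.80 ± 0.27 and -0.25 ± 0.27 (adjusted p = 0.205 and 0.842). Rasgrp2 gave 10.64 and 9.68 unstimulated and 9.44 and 9.32 stimulated in WT and 9.91 and 10.18 unstimulated and 9.16 and 8.95 stimulated in Rag KO, -0.78 ± 0.29 and -0.99 ± 0.29 (adjusted p = 0.254 and 0.122). Neither gene passed there.

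Promoter sequence was searched because many of these genes fell together and Foxo1 and Lef1 are among them. Windows from 250 bases before to 50 bases after the start site came from RefSeq (GRCm38.p6), and 26 of the 28 genes had at least 1, in 39 windows. The forkhead core TGTTTAC, on either strand, stood in 2 of the 39 windows, against 3.65% of all 32851 windows. The 2 genes, seen only in this search, were Btg1, with the motif on the gene's own strand starting at -204 (chr10:96616797-96616803), and Txnip, with it on the other strand starting at -121 (chr3:96557836-96557842). The TCF/LEF core CTTTGAT, on either strand, stood in 0 of the 39 windows and in 3.73% of all windows. Both matches are letters only, and a window without them says nothing of factors bound elsewhere. The 250 bases before the start site are shown 5′ to 3′ on the gene's strand, with the forkhead core in capitals, for the 2 genes that hold it, of which Btg1 fell in WT of the Rheb experiment and Txnip did not, and for the genes with an entry that fell in WT of both experiments, none of which holds it.
Btg1 (chr10:96616751-96617000, plus strand): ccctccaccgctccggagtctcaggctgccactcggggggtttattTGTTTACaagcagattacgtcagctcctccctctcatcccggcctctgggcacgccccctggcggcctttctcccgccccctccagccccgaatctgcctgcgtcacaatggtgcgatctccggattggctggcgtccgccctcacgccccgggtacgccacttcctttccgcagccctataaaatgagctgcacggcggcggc
Txnip (chr3:96557707-96557956, plus strand): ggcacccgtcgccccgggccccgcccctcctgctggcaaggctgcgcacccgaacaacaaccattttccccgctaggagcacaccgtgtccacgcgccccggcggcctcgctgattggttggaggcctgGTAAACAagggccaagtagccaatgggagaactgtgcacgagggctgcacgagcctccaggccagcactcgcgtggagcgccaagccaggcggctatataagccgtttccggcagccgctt
Pik3ip1 (chr11:3330481-3330730, plus strand): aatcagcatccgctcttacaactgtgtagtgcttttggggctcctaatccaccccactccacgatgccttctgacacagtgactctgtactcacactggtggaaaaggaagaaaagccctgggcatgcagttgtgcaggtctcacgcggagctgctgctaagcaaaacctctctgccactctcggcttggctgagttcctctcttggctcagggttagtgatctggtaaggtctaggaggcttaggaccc
Nsg2, first start site (chr11:32000169-32000418, plus strand): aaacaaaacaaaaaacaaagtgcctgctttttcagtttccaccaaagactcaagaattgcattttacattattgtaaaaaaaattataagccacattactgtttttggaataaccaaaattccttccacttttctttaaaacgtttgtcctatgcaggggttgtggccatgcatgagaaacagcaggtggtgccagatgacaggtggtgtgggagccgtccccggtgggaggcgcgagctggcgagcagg
Nsg2, second start site (chr11:32000450-32000699, plus strand): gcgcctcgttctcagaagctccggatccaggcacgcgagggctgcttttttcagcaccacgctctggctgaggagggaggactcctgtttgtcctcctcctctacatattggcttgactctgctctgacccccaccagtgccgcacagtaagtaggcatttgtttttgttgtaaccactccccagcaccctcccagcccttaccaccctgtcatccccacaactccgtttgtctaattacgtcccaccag
Klhl6 (chr16:19983050-19983299, minus strand): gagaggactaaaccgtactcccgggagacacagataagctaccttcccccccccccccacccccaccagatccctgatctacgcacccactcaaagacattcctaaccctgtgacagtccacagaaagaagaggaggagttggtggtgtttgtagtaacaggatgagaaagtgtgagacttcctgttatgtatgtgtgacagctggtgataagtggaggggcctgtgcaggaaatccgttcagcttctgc

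The knockout comparisons ask whether these genes depend on Rheb or on the Rag proteins in either state. In unstimulated Tregs none of the 28 genes was called in Rheb KO against WT by limma, and none had an unadjusted p below 0.05, with 0.508% of all genes called. The median difference was -0.02, between -0.04 and 0.01 when any 1 array was left out, and for 26 of the 28 genes the 95% interval lay within 0.5 units of 0, for all 28 within 1. Arrays of the genotypes did not overlap for 4 genes lower and 4 higher in Rheb KO, against 7.08% and 7.62% of all genes. Id3 and Il7r are the 2 whose intervals reached further, -0.86 to 0.22 and -0.02 to 0.61. In stimulated Tregs 1 of the 28 was called, Il6ra, 9 had an unadjusted p below 0.05, and 0.543% of all genes were called. Il6ra signals were 10.33, 10.27 and 10.18 in stimulated WT and 9.86, 9.85 and 9.78 in stimulated Rheb KO, -0.43 ± 0.09 (adjusted p = 0.0475), or 1.35-fold lower. The groups did not overlap, and the call ended without any 1 of the 12 arrays, while the value stayed between -0.48 and -0.40 in all 20 alternative settings.

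The other 8 genes with an unadjusted p below 0.05 in stimulated Rheb KO did not pass after adjustment. Il7r (0.49 ± 0.15), S1pr1 (0.30 ± 0.09), Actn1 (0.34 ± 0.13) and Igfbp4 (0.32 ± 0.13) were on the higher side, and Tob1 (-0.40 ± 0.11), Btg2 (-0.38 ± 0.14), Ramp1 (-0.34 ± 0.13) and Il6st (-0.33 ± 0.09) on the lower side, with adjusted p between 0.199 and 0.476. Klf2 gave 0.25 ± 0.13 and Foxo1 -0.03 ± 0.09, with 95% intervals of -0.02 to 0.52 and -0.22 to 0.15. In this state 5 of the 28 genes were lower and 3 higher in Rheb KO with no overlap of the arrays, against 8.8% and 6.75% of all genes. The change of the knockout effect with stimulation was not called for any of the 28 genes by limma, nor for any gene of the array, and 2 of the 28, Actn1 (0.42 ± 0.19) and Il6ra (-0.27 ± 0.12), had an unadjusted p below 0.05.

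**Figure D4:**
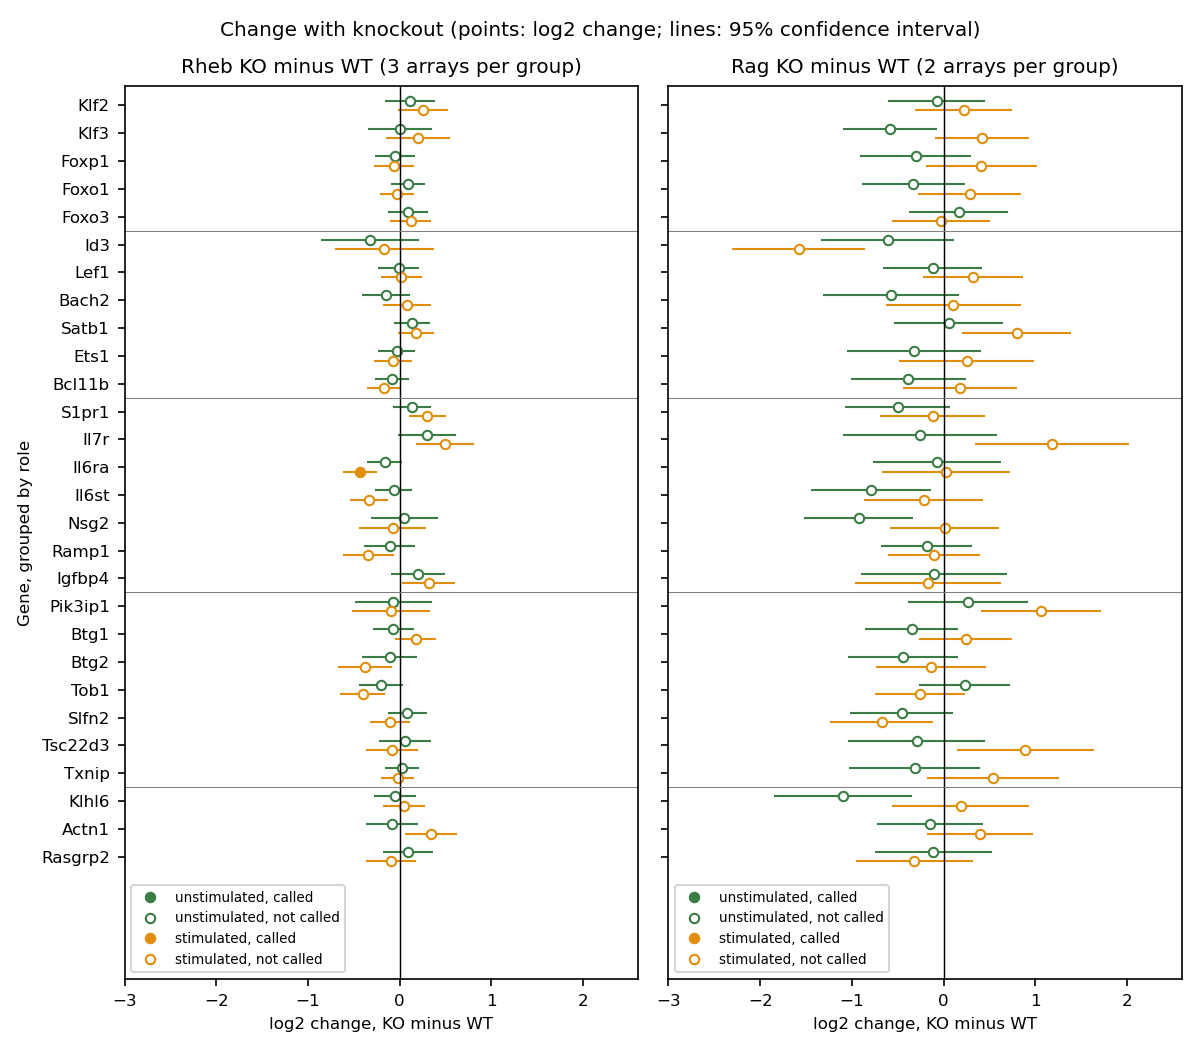
Difference of each gene between knockout and WT (log2) with its 95% confidence interval from limma, in unstimulated (green) and stimulated (orange) arrays, for Rheb KO (left, 3 arrays per group) and Rag KO (right, 2 arrays per group). Only Il6ra in stimulated Rheb KO is filled, the 1 called point. Most Rheb KO points lie near 0, and the Rag KO intervals are wider.

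In Rag KO Tregs none of the 28 genes was called in either state by limma. Unstimulated, 4 had an unadjusted p below 0.05 and 0.113% of all genes were called. Stimulated, 6 had an unadjusted p below 0.05 and 0.103% of all genes were called. The intervals allow no narrow statement: for 0 of the 28 genes did the 95% interval lie within 0.5 units of 0 in either state, for 14 within 1 unit unstimulated and for 20 stimulated. The median difference was -0.31 without stimulation, against 0.03 for all genes, with 24 of 28 below 0. It was 0.02 without replicate 1 of unstimulated Rag KO, -0.02 without replicate 1 of unstimulated WT, and -0.58 and -0.60 without the other WT or Rag KO array, so its sign rests on single arrays. With stimulation it was 0.18, against -0.05 for all genes, with 18 of 28 above 0. That median was 0.03 without replicate 2 and 0.29 without replicate 1 of stimulated WT, and 0.09 without replicate 1 of stimulated Rag KO. Arrays without overlap were lower in Rag KO for 8 and higher for 1 of the 28 genes unstimulated, against 12.5% and 15.9% of all genes, and lower for 4 and higher for 12 stimulated, against 26.2% and 18.1%.

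The 4 genes with an unadjusted p below 0.05 in unstimulated Rag KO were all on the lower side. Klhl6 gave -1.10 ± 0.35 with a 95% interval of -1.84 to -0.35, Nsg2 -0.93 ± 0.28 with -1.52 to -0.33, Il6st -0.79 ± 0.30 with -1.44 to -0.14, and Klf3 -0.58 ± 0.24 with -1.10 to -0.07 (adjusted p = 0.578, 0.526, 0.674 and 0.7). In all 4 both Rag KO arrays lay below both WT arrays, and in Klhl6, Nsg2, Il6st and Klf3 alike the lower Rag KO array was replicate 1, an array of low signal. Without replicate 2 of unstimulated Rag KO, which leaves 1 array in that group, Klhl6 gave -1.73 and Nsg2 -1.22. With both arrays of lowest signal left out, the median of the 28 genes was -0.33.

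In stimulated Rag KO, Id3 gave -1.58 ± 0.34 with a 95% interval of -2.31 to -0.86 and did not pass (adjusted p = 0.137), with 1 of its Rag KO signals below the negative control median. Its 2 Rag KO arrays, 6.34 and 7.37, lay below its 2 WT arrays, 8.07 and 8.81. Under several alternatives Id3 was called at the same value of -1.58, among them the low-signal filter (adjusted p = 0.0227) and a fit of only the 4 arrays compared (adjusted p = 0.00769). The fit of only the 4 arrays also called Pik3ip1 at 1.07 (adjusted p = 0.027). Leaving out the 2 arrays of lowest signal takes the spread from the same 4 stimulated arrays, so it adds no separate test. Pik3ip1 had 9.05 and 8.34 in WT and 9.88 and 9.65 in Rag KO, 1.07 ± 0.30 (adjusted p = 0.4) in the fit of the 8 arrays. Il7r (1.18 ± 0.39), Tsc22d3 (0.89 ± 0.35) and Satb1 (0.80 ± 0.28) were on the higher side and Slfn2 (-0.67 ± 0.26) on the lower side, with adjusted p between 0.59 and 0.867. Both Rag KO arrays lay above both WT arrays for Il7r, Tsc22d3 and Satb1.

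The change of the Rag knockout effect with stimulation was above 0 for 22 of the 28 genes, with a median of 0.57 against -0.08 for all genes. The median was 0.23 without replicate 1 of unstimulated Rag KO, 0.24 without replicate 1 of unstimulated WT, 0.86 without replicate 2 of unstimulated Rag KO and 0.31 with a second quantile normalization. None passed by limma, no gene of the array did, and 5 of the 28 had an unadjusted p below 0.05: Il7r (1.44 ± 0.55), Klhl6 (1.29 ± 0.49), Tsc22d3 (1.18 ± 0.49), Klf3 (1.00 ± 0.34) and Nsg2 (0.94 ± 0.39). Without replicate 2 of unstimulated Rag KO, which leaves 1 array in that group, Klhl6 gave 1.92. Differences between the Rag and the Rheb knockout effects were tested in 1 fit of all 20 arrays, each effect against the WT of its own experiment. None of the 28 genes passed in either state, with 6 below an unadjusted p of 0.05 unstimulated and 5 stimulated, and 0.0564% and 0.19% of all genes called. The median difference was -0.30 unstimulated and 0.18 stimulated. The first changed sign without replicate 1 of unstimulated WT of the Rag experiment (0.02), was -0.02 without replicate 1 of unstimulated Rag KO, and -0.56 and -0.58 without replicate 2 of these groups. The second was 0.05 without replicate 2 and 0.31 without replicate 1 of stimulated WT of the Rag experiment. Id3 in stimulated cells had the lowest adjusted p, -1.41 ± 0.43 (adjusted p = 0.338).

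Lists of other genes of the same biology were described the same way, and hold none of the 31. Of 15 measured further genes linked to Foxo factors, 7 fell in WT of the Rheb experiment and 4 in Rheb KO, none rose, and in the Rag experiment Sesn1 fell in WT (-1.65 ± 0.26, adjusted p = 0.00948) and Irs2 rose in Rag KO (1.19 ± 0.25, adjusted p = 0.039). Sesn1, a stress protein that restrains mTORC1, also fell in WT of the Rheb experiment (-0.72 ± 0.13, adjusted p = 0.00238). Cited2, a transcriptional coregulator, fell in both genotypes (-0.73 ± 0.14 in WT and -1.14 ± 0.14 in Rheb KO, adjusted p = 0.00374 and 0.000123). Of 17 further quiescence genes, 6 fell and 1 rose in each genotype of the Rheb experiment and none was called in the Rag experiment, where 4 had an unadjusted p below 0.05 in WT and 3 in Rag KO. The falls were led by Zfp36l2, an RNA-binding protein that shortens messenger RNA lifetimes (-1.001 ± 0.10 in WT, adjusted p = 2.93e-05), which lay below the negative control median in all 3 stimulated WT arrays, and the rise was Arrdc4, a relative of Txnip (0.83 ± 0.11 in WT and 0.80 ± 0.11 in Rheb KO, adjusted p = 0.000463 and 0.000548).

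Of 22 further genes of naive and central T cells, 10 fell and 1 rose in WT of the Rheb experiment and 9 fell and 1 rose in Rheb KO. Among the 8 Rag experiment arrays, 5 fell in WT, with 1 up and 1 down in Rag KO. Sidt1 fell in both WT comparisons (-0.94 ± 0.12 and -1.62 ± 0.25, adjusted p = 0.000311 and 0.00883), as did Pecam1, an adhesion molecule of naive T cells (-0.85 ± 0.10 and -1.58 ± 0.29, adjusted p = 0.000144 and 0.0198). This list also held called knockout effects. Dapl1, a gene of naive and memory T cells, was lower in unstimulated Rheb KO (-0.94 ± 0.13, adjusted p = 0.00693) and in unstimulated Rag KO (-1.40 ± 0.22, adjusted p = 0.0305). Sidt1 was lower in stimulated Rheb KO (-0.72 ± 0.12, adjusted p = 0.0219). Ccr9, the gut-homing chemokine receptor, was higher in unstimulated Rag KO (1.87 ± 0.32, adjusted p = 0.047).

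Other programmes moved in the same arrays. Of 20 activation genes, 9 rose and 2 fell in WT of the Rheb experiment and 10 rose and 1 fell in Rheb KO, and 6 and 8 rose in WT and Rag KO of the Rag experiment. The falls in the Rheb experiment were the early activation genes Cd69 (-0.94 ± 0.08 in WT, adjusted p = 1.65e-05, and -0.52 ± 0.08 in Rheb KO, adjusted p = 0.0011) and Nr4a2 (-1.01 ± 0.12 in WT, adjusted p = 0.000134). The WT change of 5 activation genes differed between the experiments, led by Nr4a3 (2.47 ± 0.29 higher in the Rag experiment, adjusted p = 0.000226). Of 18 immediate early and stress genes known from cell dissociation, 14 fell in WT and 15 in Rheb KO of the Rheb experiment, led by Fosb (-3.55 ± 0.11 in WT, adjusted p = 1.73e-09) and Fos (-2.72 ± 0.14, adjusted p = 2.86e-07). This list includes Btg2. Its mean per array was 10.41 to 10.43 in unstimulated and 9.35 to 9.41 in stimulated WT arrays of the Rheb experiment, and its summed signal 15.37 to 15.40 against 14.37 to 14.43 (log2). In the Rag experiment 1 rose and 3 fell in WT, 2 rose and 2 fell in Rag KO, with Fos and Fosb among the falls of both (Fos -2.49 ± 0.28 in WT, adjusted p = 0.00191), and the WT means were 9.48 to 10.10 unstimulated and 9.56 to 9.75 stimulated. Their part in the falls of the 28 genes was not tested.

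Markers of other cells that a CD4+CD25+ gate can hold were checked the same way. Of 10 macrophage markers 7 fell in each genotype of the Rheb experiment, with means per array of 7.32 to 7.40 in unstimulated and 6.69 to 6.93 in stimulated WT, and 7.75 to 7.85 and 6.73 to 6.77 in Rheb KO. Their summed signal (log2) was 10.84 to 10.87 and 10.20 to 10.41 in WT, and 11.27 to 11.35 and 10.16 to 10.21 in Rheb KO. In unstimulated Rheb KO 2 of them, C1qa (1.14 ± 0.19, adjusted p = 0.0228) and Ms4a7 (0.84 ± 0.16, adjusted p = 0.0424), were higher than in WT. None of the 10 was called with stimulation in the Rag experiment, where 1 had an unadjusted p below 0.05 in WT and 0 in Rag KO. There 4 to 6 of the 10 lay below the negative control median in all arrays of each group. In the Rheb experiment 2 did so in unstimulated and 4 in stimulated WT, and 1 and 6 in Rheb KO. The sizes of those falls thus rest in part on signals at background. Of 11 dendritic cell markers 4 fell with stimulation in each genotype of the Rheb experiment, and Cd83 rose in Rheb KO (0.43 ± 0.12, adjusted p = 0.0316) and in Rag KO (1.67 ± 0.24, adjusted p = 0.00439), the only call in this list with stimulation in the Rag experiment. Itgax was among the 4 that fell (-0.57 in WT and -0.69 in Rheb KO). It lay below the negative control median in all WT arrays of the Rheb experiment and in all stimulated Rheb KO arrays. H2-Eb1 was higher in Rheb KO than in WT in both states (0.83 ± 0.14 unstimulated and 0.78 ± 0.14 stimulated, adjusted p = 0.0192 and 0.0233), and H2-Ab1 in the unstimulated state (0.73 ± 0.15, adjusted p = 0.0479). The dendritic cell mean per array was 7.54 to 7.74 unstimulated and 7.21 to 7.38 stimulated in WT, and 7.88 to 7.94 and 7.40 to 7.504 in Rheb KO. Of 8 natural killer cell markers Eomes (-1.004 ± 0.19, adjusted p = 0.00443) and Klrb1c (-0.89 ± 0.26, adjusted p = 0.0461) fell in WT of the Rheb experiment, and of 9 B cell markers Cd22 fell in Rheb KO (-0.82 ± 0.15, adjusted p = 0.00344). Klrb1c lay below the negative control median in all WT arrays of that experiment, in both states. Cd22 did so in all stimulated Rheb KO arrays. No other comparison called a gene of these 2 lists or of the 2 measured CD8 T cell markers. Of 9 markers of conventional CD4 T cells, 2 fell and 1 rose in WT and 3 fell in Rheb KO of the Rheb experiment, and 2 fell in WT of the Rag experiment. Themis fell in both WT comparisons (-0.81 ± 0.17 and -1.58 ± 0.30, adjusted p = 0.00827 and 0.0243). In unstimulated Rag KO 1 of the 9, Trat1, was lower (-1.63 ± 0.28, adjusted p = 0.047), and the list mean was 8.66 to 9.38 against 9.33 to 9.50 in WT. Il2, the cytokine that defines that list, lay below the negative control median in all arrays of every group but the 2 stimulated groups of the Rag experiment. Summed over the list, conventional CD4 signal (log2) was 13.77 to 13.85 in unstimulated and 13.53 to 13.58 in stimulated WT arrays of the Rheb experiment, and 13.32 to 13.86 and 13.36 to 13.63 in the Rag experiment. Whether other cells had a part in the changes of the 28 genes was not tested.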

How the data were processed

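Values were the log2 signals of the deposited series matrix, made by the authors with RMA in Affymetrix Expression Console 1.1, per the submitters' processing notes. It is not known here if the 2 experiments shared 1 normalization. Probe sets were named from the platform annotation, and those naming several genes or none were left out. Groups came from the sample titles.

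The deposited log2 values were used unchanged. Changes were estimated with limma 3.58.1 in R 4.3.3, with 1 mean per group, over the 12 arrays of the Rheb experiment, the 8 of the Rag experiment, or all 20 for differences between experiments. P-values were Benjamini-Hochberg adjusted over 19505 genes, with a threshold of 0.05, and intervals are 95%. The number of arrays limits the precision. The procedure was tested on simulated data with independent noise in each array. That simulation did not model the uneven array signal of the Rag experiment. All 28 measured genes are described, and genes of other lists are named by the size of their change among those called. The genes and lists were chosen with earlier results of these data known. Alternatives were other scalings, a low-signal filter, another variance prior, other sets of arrays, a replicate block and leaving out each array.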

Additional observations from a re-analysis of the deposited data

Results flagged for a closer look

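The change of Klf3 with stimulation in WT Tregs differed between the experiments. The value in the Rag experiment minus that in the Rheb experiment was -1.25 on the log2 scale (limma, Benjamini-Hochberg adjusted p = 0.0422), tested in 1 fit of all 20 arrays. It was the only difference of this kind among the 28 genes.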

How the results depend on the processing

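No call of the 28 genes changed direction under any alternative. The counts of 19 (WT) and 18 (Rheb KO) genes called with stimulation in the Rheb experiment stayed between 15 and 21 and between 14 and 20, with 17 to 19 and 16 to 18 when 1 array was left out, and 14 genes kept their call throughout in each. Other counts moved. For stimulated Rheb KO against WT, 1 became 0 with medians centred, with the replicate block, with only the groups compared, with all 20 arrays and without any 1 array (0 to 0), and 2 with the trended prior. For unstimulated Rag KO against WT, 0 became 1 with all 20 arrays and 0 to 2 without 1 array. For stimulated Rag KO against WT, 0 became 1 with the low-signal filter, the trended prior or the block, and 2 with only the groups compared or all 20 arrays. Its median was 0.03 to 0.29 without 1 array. For WT stimulation in the Rag experiment, 5 became 11 with a second quantile normalization or centring, 9 with only the groups compared, 14 with all 20 arrays, 12 without the 2 arrays of lowest signal and 0 to 7 without 1 array. For Rag KO stimulation, 1 became 5 with either scaling, 3 with the filter, 2 with the block and 0 with only the groups compared, all as lower. With all 20 arrays it became 6, of which 5 were lower and 1 higher. Its median was -0.36 without the 2 arrays of lowest signal and -0.36 to 0.08 without 1 array. The Rag knockout effect's change with stimulation gave 0 to 1 without 1 array, and the unstimulated Rag minus Rheb effect 0 to 4. The WT response difference between experiments gave 2 instead of 1 with either scaling and 0 with the block or only the groups compared. Its median was -0.38 to 0.26 without 1 array. The causes were not tested. The setting without the 2 arrays of lowest signal was chosen after seeing the data. It leaves 1 array in each unstimulated group of the Rag experiment. Leaving out any 1 Rag experiment array likewise leaves 1 in its group. Deviations of arrays of the same replicate number correlated with r of -0.20 to 0.18 in the Rheb experiment and -0.43 to 0.23 in the Rag experiment. Arrays of different number gave -0.19 to 0.26 and -0.23 to 0.43. With 2 arrays per group the Rag values mirror each other, and low values do not exclude a shared mouse or day. Whether the numbers pair the arrays is therefore not settled. The block left 19 and 16 calls in the Rheb experiment's WT and Rheb KO responses. Groups of 2 and 3 arrays limit what the Rag and Rheb comparisons can detect.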
